A study of Mus musculus with 22 samples.

Results

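DZNep (3-deazaneplanocin A) was compared with the group labelled NC in mouse E14 embryonic stem cells. The comparison took in 4 of the 22 RNA-seq libraries of the series, 2 labelled DZNep and 2 labelled NC, which were chosen by their sample titles, and all genes were described. E14 is an established line of mouse embryonic stem cells. The other 18 libraries came from the same line and carried 9 other compound labels (Bromosporine, CPTH2, Chaetocin, Garcinol, IOX1, MS023, OICR, UNC0379 and Valproate), 2 libraries each. NC was the only one of the 11 groups whose labels named no compound. Genotype, dose and length of treatment were not given in the labels, and nothing in them said whether the 2 libraries of a group came from separate cultures. The p-values thus measured the spread between libraries only, pooled over all 22 libraries of the 11 groups.

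DZNep is an adenosine analog that inhibits S-adenosylhomocysteine hydrolase (AHCY), the enzyme that clears the by-product of methyl transfer. When S-adenosylhomocysteine accumulates, it inhibits many enzymes that use S-adenosylmethionine, among them EZH2, the catalytic subunit of polycomb repressive complex 2 (PRC2), which methylates lysine 27 of histone H3. Methyl groups also enter DNA, RNA and other proteins by this route, and in embryonic stem cells they take part in the silencing of germline genes, imprinted genes and developmental regulators.

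Values were normalized read counts rounded to whole numbers, and their distribution was nearly the same in every library, with a median of 409. Levels of different genes were not adjusted for gene length, so that each gene was compared only with itself. Sequencing depth could not be read from these values. A gene was called when limma gave an adjusted p under 0.05 and a change of over 1 on the log2(value + 1) scale, on either side, with 17275 of 18487 genes tested. The replicates of DZNep differed by a median of 0.37 on the log2 scale over the tested genes, those of NC by 0.24, and those of the other 9 groups by 0.22 to 0.36. The DZNep pair was thus the least alike of the 11. The fit used 1 estimate of the spread per gene for all 11 groups, which may lie below the spread within DZNep. Markers of embryonic stem cells were high in all 4 libraries. Pou5f1 measured 28606 and 29454 in NC and 32054 and 33724 in DZNep, and the 8 markers together summed to 205183 and 207243 in NC and to 263560 and 275875 in DZNep. Nanog and Zfp42 were higher in DZNep, whereas Dppa5a (41903 and 39262 against 28606 and 30833) and Tdgf1 (25722 and 15640 against 11541 and 8477) were lower and not called. Of the 7 fibroblast markers, Dcn and Lum were listed at 0 in all 4 libraries, whereas Col1a1 and Thy1 rose. Pdgfrb was lower in DZNep without a call. The 7 summed to 271 and 917 in NC and to 992 and 1119 in DZNep.

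Against NC, 1970 genes were called in DZNep, of which 910 rose and 1060 fell. These were 11.4% of the tested genes, with 5.27% risen and 6.14% fallen. The counts of every gene list below stand against these shares. The median change of the risen genes was 1.73 and that of the fallen genes was -1.49, whereas the median of all tested genes was -0.04. In 364 risen and 290 fallen genes the change was over 2 on the log2 scale. Of the called genes, 1817 were above 0 in all 22 libraries (788 risen and 1029 fallen). The DZNep and NC libraries did not overlap in any of the 1970 called genes, and they did not overlap in 58.9% of the tested genes. It follows that all 1970 moved the same way within replicate numbers 1 and 2, as did 72.7% of the tested genes. In 1304 called genes the change was over 1 within both numbers with values above 0 in all 22 libraries (606 risen and 698 fallen). The number of calls rested in part on one control library and on the common fit. Without NC replicate 1, 1187 genes were called (567 risen and 620 fallen), and with only the DZNep and NC libraries in the fit, which left 2 residual degrees of freedom, 97 were called (82 risen and 15 fallen), although 1831 of the 1970 had an unadjusted p under 0.05 in that smaller fit. Where a gene is described as lost without a library, it is the call that was lost, and bracketed ranges give its change over the 4 leave-outs.

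**Figure D1:**
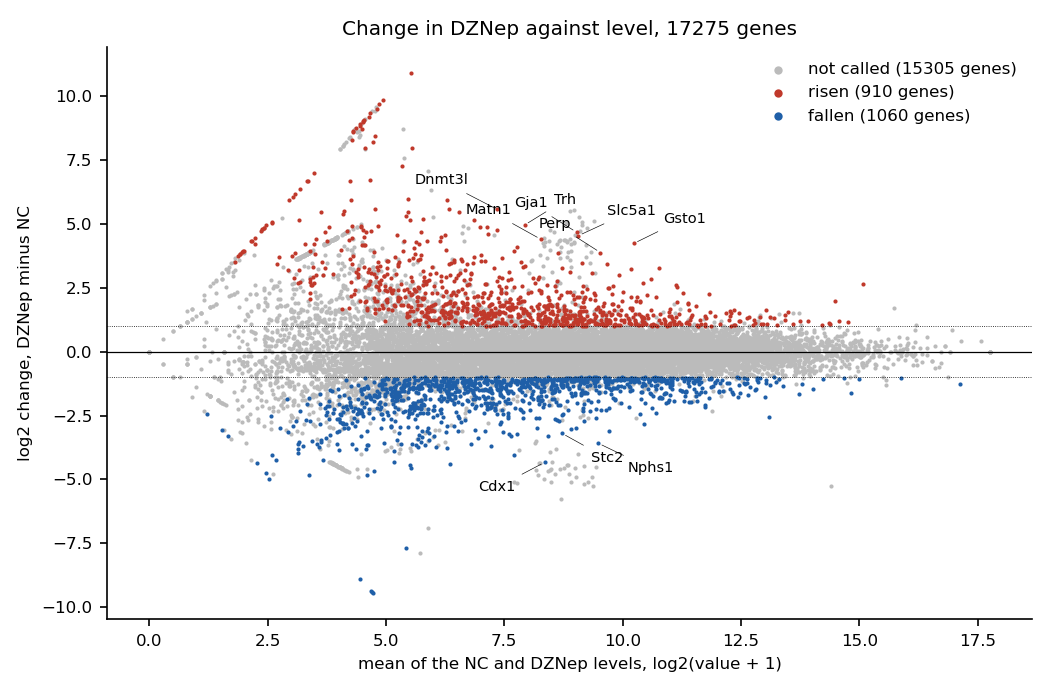
Change of each of the 17275 tested genes in DZNep (log2 change against NC, vertical axis) against its mean level in both groups (log2 of the value plus 1, horizontal axis), with each point 1 gene. The 910 risen and 1060 fallen genes lie beyond the dotted lines at 1 and -1, and the widest changes are found at low and middle levels.

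Calls were least frequent among genes of high level. When genes were split into 5 bins of nearly equal size by their mean in the 18 libraries of the other compounds, the lowest bin (means up to 64.8) held 346 risen and 214 fallen genes, the second bin held 265 and 354, and the highest bin (means from 2300) held 48 risen and 134 fallen genes. Changes of replicate numbers 1 and 2 correlated across genes with r = 0.65 in both of the upper bins, 0.47 in the lowest and 0.22 in the middle bin. Genes are not independent replicates, and this is a description. In 51 called genes 1 of the groups was listed at 0 in both libraries, and in 20 of these a library of another compound was over 100. Such genes were counted above but were not named as largest changes. Called genes also had a higher GC content, with a median of 52.0% over the longest transcript in risen genes and 52.4% in fallen genes against 48.2% in genes not called, and the part of GC content in the calls was not tested. Protein-coding genes made up 849 of the risen and 914 of the fallen genes.

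**Figure D2:**
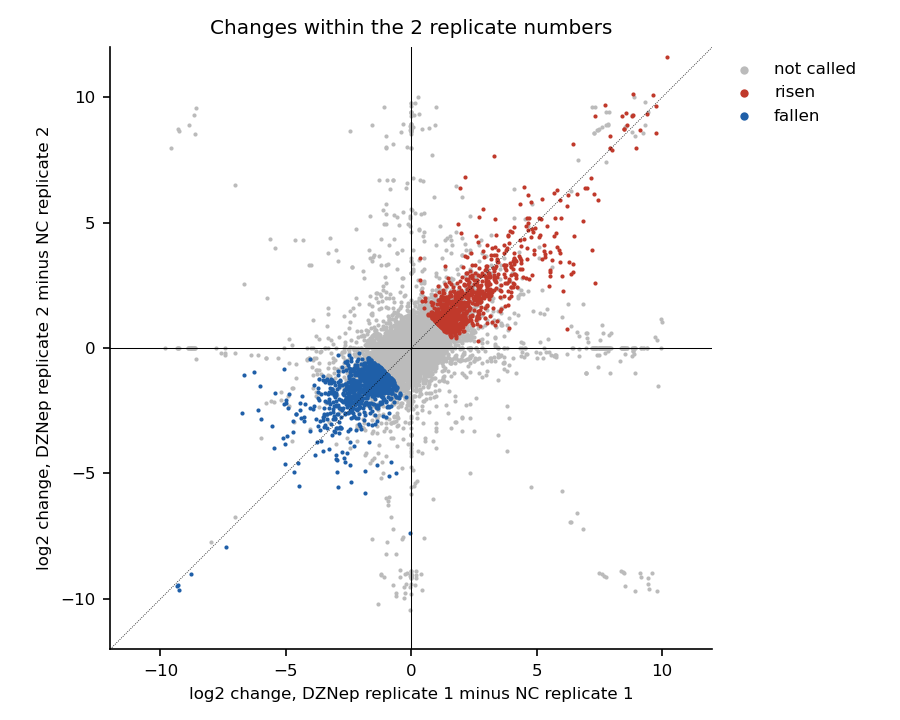
Log2 change of each tested gene between the libraries numbered 1 (horizontal axis) and between those numbered 2 (vertical axis), DZNep minus NC. Risen genes lie in the upper right and fallen genes in the lower left quadrant. No called gene lies in the other quadrants, which follows from DZNep and NC not overlapping in any called gene.

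Among well-expressed genes, those with a larger group mean of at least 1000, the 12 largest rises were led by Dnmt3l (chromosome 10, bases 78041947 to 78063622, mm10), a catalytically inactive partner of the de novo DNA methyltransferases. Dnmt3l measured 9 and 40 in NC and 1487 and 612 in DZNep, a change of 5.56 ± 0.92 (SE, n = 2 per group) with an adjusted p of 0.000797. Both DZNep libraries were above the 18 libraries of the other compounds, whose highest value was 536. Gsto1 (chromosome 19, bases 47854970 to 47864790), a glutathione transferase of the omega class, rose from 228 and 330 to 4787 and 5580. The change of Gsto1 was 4.23 ± 0.39 with an adjusted p of 1.33e-05. Gja1 (chromosome 10, bases 56377330 to 56402513), which encodes the gap junction protein connexin 43, rose from 62 and 152 to 2877 and 2167. The sodium-glucose transporter gene Slc5a1 rose from 61 and 174 to 2478 and 2343. The cartilage matrix gene Matn1 went from 63 and 67 to 1887 and 1015. The other rises of this group were Perp, Pramel6, Snx20, Ptprv, Oc90 and Ly6a, with changes from 3.22 to 3.88, and Trh. Trh, the precursor of thyrotropin-releasing hormone, measured 17 and 55 in NC and 2867 and 335 in DZNep, and its call was lost without DZNep replicate 1 or without NC replicate 1, with changes from 3.40 to 6.50 over the 4 leave-outs.

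The 12 largest falls at this level were led by Cdx1 (chromosome 18, bases 61018862 to 61036199), a homeobox gene that responds to WNT and retinoic acid. Cdx1 measured 1773 and 1006 in NC and 37 and 116 in DZNep, a change of -4.33 ± 0.87 with an adjusted p of 0.00299. Nphs1 (chromosome 7, bases 30458315 to 30487223), which encodes the adhesion protein nephrin, was called as well, at 2608 and 2175 against 134 and 292. Its exons overlap those of an antisense transcript, and the labels did not say that strand was kept. Kirrel2, which encodes a nephrin-like adhesion protein, was at 1798 and 1449 in NC and at 164 and 423 in DZNep. The lowest library of the other compounds had Kirrel2 at 72, below both DZNep libraries. Stc2, Chac1 and the neutral amino acid transporter gene Slc1a4 were further falls of this group, with changes of -3.19, -3.05 and -2.83. Slc1a4 measured 4760 and 2824 in NC and 492 and 535 in DZNep. Lefty2, Atp1b2, Rnf157, Kif21b and Rian were also among them. The call of Kif21b was lost without NC replicate 1 (leave-out changes of -3.18 to -2.24), and that of Rian without NC replicate 1 or DZNep replicate 2 (-2.99 to -2.11).

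At group means of 100 to 1000, the largest rises above 0 in all libraries were Sntg1, Gabra4, Ms4a10, Crhr2, Id3 and Nkx2-9. Crhr2, a receptor of corticotropin-releasing hormone family peptides, measured 22 and 23 in NC and 707 and 667 in DZNep, against at most 68 in the libraries of the other compounds. Nkx2-9, a homeobox gene, measured 22 and 40 against 777 and 871. The calls of Sntg1 (2 and 2 in NC, 773 and 708 in DZNep) and Gabra4 (10 and 11, 409 and 727) were lost without NC replicate 1, without NC replicate 2 or without DZNep replicate 1, that of Gabra4 also without DZNep replicate 2 (leave-out changes of 7.88 to 8.01 and of 5.16 to 5.99). In the libraries of the other compounds Gabra4 ranged from 6 to 727, with a median of 10. Sntg1 ranged from 2 to 994 in those libraries, with a median of 480. Against the mean of the other 9 compounds its change was 2.03 ± 1.52 and was not called (adjusted p = 0.327). The largest falls included Atxn1l, Serpinf1, Lmx1b, Rarb and Zfp629. Atxn1l measured 162 and 97 in NC and 4 and 3 in DZNep, and Serpinf1, a secreted anti-angiogenic serpin, measured 229 and 214 against 9 and 8. In the libraries of the other compounds Serpinf1 ranged from 4 to 794, with a median of 111. Rarb, a retinoic acid receptor, measured 138 and 105 against 1 and 18 and was not called without DZNep replicate 1 or without either NC library (-5.92 to -2.68). The libraries of the other 9 compounds had a Rarb median of 30, and against their mean it was not called (adjusted p = 0.0933).

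The enzyme that DZNep inhibits was described first among the pathway lists. Ahcy (chromosome 2, bases 155059310 to 155074497) measured 336 and 431 in NC and 225 and 224 in DZNep. Both DZNep libraries were lower, but the change of -0.76 ± 0.26 (adjusted p = 0.0494) was under the fold needed for a call, and Ahcy shares 79.4% of its 31-base stretches with other annotated transcripts, so that its value is uncertain. Of the 31 tested genes of the methionine cycle and of homocysteine and folate turnover, 2 rose and 3 fell, and the median change was 0.01. These are 6.45% risen and 9.68% fallen, near the 5.27% and 6.14% of all tested genes. The risen genes were Bhmt, which remethylates homocysteine with betaine (3311 and 2581 against 6976 and 9846), and Cbs, which passes homocysteine on towards cysteine (946 and 1012 against 2370 and 1825). In the libraries of the other compounds Cbs had a median of 1508.5 and reached 2313. Against the mean of those compounds Cbs was not called (adjusted p = 0.122). Both rises were weakly held, since Bhmt was lost without DZNep replicate 2 or NC replicate 2 (1.25 to 1.75) and Cbs without any of the 4 libraries (0.90 to 1.28). Gnmt, the glycine N-methyltransferase, fell from 28 and 18 to 1 and 0. The mitochondrial folate genes Mthfd1l (8502 and 7736 against 2710 and 3189) and Mthfd2 (11454 and 7031 against 3253 and 2457) fell as well, the last of them not without NC replicate 1 (-2.02 to -1.31). In this list 1 gene rose and 2 fell without NC replicate 1, and none rose and 3 fell without NC replicate 2 or without DZNep replicate 2. Shmt2, the mitochondrial serine hydroxymethyltransferase, had a change of -0.93 ± 0.11 (adjusted p = 0.000102), just under the fold. The synthetase Mat2a, at 10700 and 15391 against 9208 and 8553, was not called.

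The genes of adenosine handling were next. Ada (chromosome 2, bases 163726584 to 163750239), adenosine deaminase, rose from 43 and 113 in NC to 727 and 687 in DZNep. Its change was 3.32 ± 0.35 with an adjusted p of 3.59e-05, and the highest of the 18 other libraries was 318. Slc28a3, a concentrative nucleoside transporter, rose from 110 and 164 to 350 and 473, and no library of the other compounds was over 238. The nucleotidase gene Nt5c2 was the remaining risen member, lost without NC replicate 1 or DZNep replicate 2 (1.18 to 1.76). Of the 16 tested members 3 rose (18.8%, against 5.27% of all tested genes), none fell and 13 were not called. The median change was 0.09. Adk, the kinase that salvages adenosine, measured 1040 and 1060 against 891 and 1261 and was not called.

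The methyltransferases themselves followed. Calls made up 14.3% of the PRC2 list, 8.33% of the arginine methyltransferases and 7.69% of the RNA methylation list. The share was 3.45% of the other lysine methyltransferases and 0% of PRC1, against 11.4% of all tested genes. Ezh2 measured 9031 and 11077 in NC and 6912 and 8923 in DZNep (change -0.35 ± 0.19, adjusted p = 0.20), Eed measured 5914 and 6170 against 7760 and 7344, and Suz12 measured 9432 and 5616 against 11521 and 4421. None of these subunits was called. Among the 14 tested subunits and partners of PRC2, Jarid2, a cofactor that helps to recruit the complex, rose from 6806 and 6968 to 15635 and 12673, and was lost without DZNep replicate 1 (0.88 to 1.18). Phf19, a Polycomb-like partner, fell from 347 and 320 to 30 and 51, by 3.06 on the log2 scale with an adjusted p of 6.25e-06 and below all 18 other libraries. Not one of the 21 tested PRC1 genes was called (changes of -0.67 to 0.71). Of 29 histone lysine methyltransferases outside PRC2, 1 was called, the H3K36 methyltransferase gene Nsd2, which fell from 2586 and 3090 to 616 and 813. Of 12 arginine methyltransferases 1 fell, Prmt8, which was lost without either NC library or without DZNep replicate 1 (-2.96 to -1.93). Against the mean of the other 9 compounds Prmt8 was not called (adjusted p = 0.118). Of 26 genes of RNA methylation, the reader genes Igf2bp2 (2965 and 2488 against 1356 and 1085) and Igf2bp3 (6757 and 5309 against 2907 and 1945) fell. Mettl3, the catalytic writer of methyladenosine in RNA, was not called (1346 and 1610 against 1731 and 2944).

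Among 19 genes of DNA methylation, 2 rose and 1 fell (10.5% and 5.26%, against 5.27% and 6.14% of all tested genes). Dnmt3l and the imprint protector Zfp57 rose, and the oxidase gene Tet3 fell from 580 and 523 to 158 and 159. The rise of Zfp57 (7821 and 9304 against 19854 and 15958) was not called without NC replicate 1 or DZNep replicate 1 (0.90 to 1.22). Dnmt1 measured 15612 and 13829 against 14408 and 15007, and Uhrf1 21917 and 21274 against 19201 and 17963. Neither maintenance factor was called. The de novo enzymes had wide intervals, as Dnmt3a measured 572 and 613 against 185 and 225 (adjusted p = 0.0851) and Dnmt3b 630 and 1277 against 2244 and 1980 (adjusted p = 0.151). 

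Genes of cholesterol synthesis and uptake fell together. These are targets of the transcription factor SREBP2, which is activated when sterols are low. Of 24 tested members 13 fell and none rose, 54.2% fallen against 6.14% of all tested genes, with a median change of -1.03. In 23 of the 24 the DZNep value was below NC within both replicate numbers, as in 39.3% of the tested genes. The synthesis enzymes Nsdhl, Tm7sf2 and Cyp51 fell, with changes of -2.29, -1.87 and -1.57. Nsdhl measured 1530 and 1939 in NC and 253 and 489 in DZNep. Tm7sf2 measured 765 and 674 against 188 and 203, and Cyp51 measured 6304 and 4816 against 1598 and 2160. The DZNep libraries of these 3 enzymes were below every other library of the series. Ebp was the remaining member, with a change of 0.18 ± 0.32. All 13 members were also called against the mean of the other 9 compounds. The list had 10 to 15 fallen members when 1 library was left out, and 0 in the fit of DZNep and NC alone.

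Fatty acid synthesis genes went the same way. Of 18 tested members 5 fell and none rose (27.8% fallen against 6.14% of all tested genes), with a median of -0.70. Scd1, the stearoyl-CoA desaturase, fell from 13062 and 11011 to 4524 and 3957, a change of -1.50 ± 0.12 with an adjusted p of 6.38e-06, and no library of the other compounds was under 10421. Mid1ip1, an activator of acetyl-CoA carboxylase, fell from 1223 and 1354 to 224 and 288. The desaturase gene Fads1 (lost without DZNep replicate 2, -1.31 to -0.99), Acsl3 and Thrsp were the other fallen members. Thrsp measured 293 and 230 in NC and 17 and 172 in DZNep, and it was not called without DZNep replicate 1 or without either NC library (-3.86 to -0.59). Against the mean of the other 9 compounds Thrsp was not called (adjusted p = 0.0805). Acsl3 was lost without NC replicate 1 or DZNep replicate 2 (-1.42 to -0.82).

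**Figure D3:**
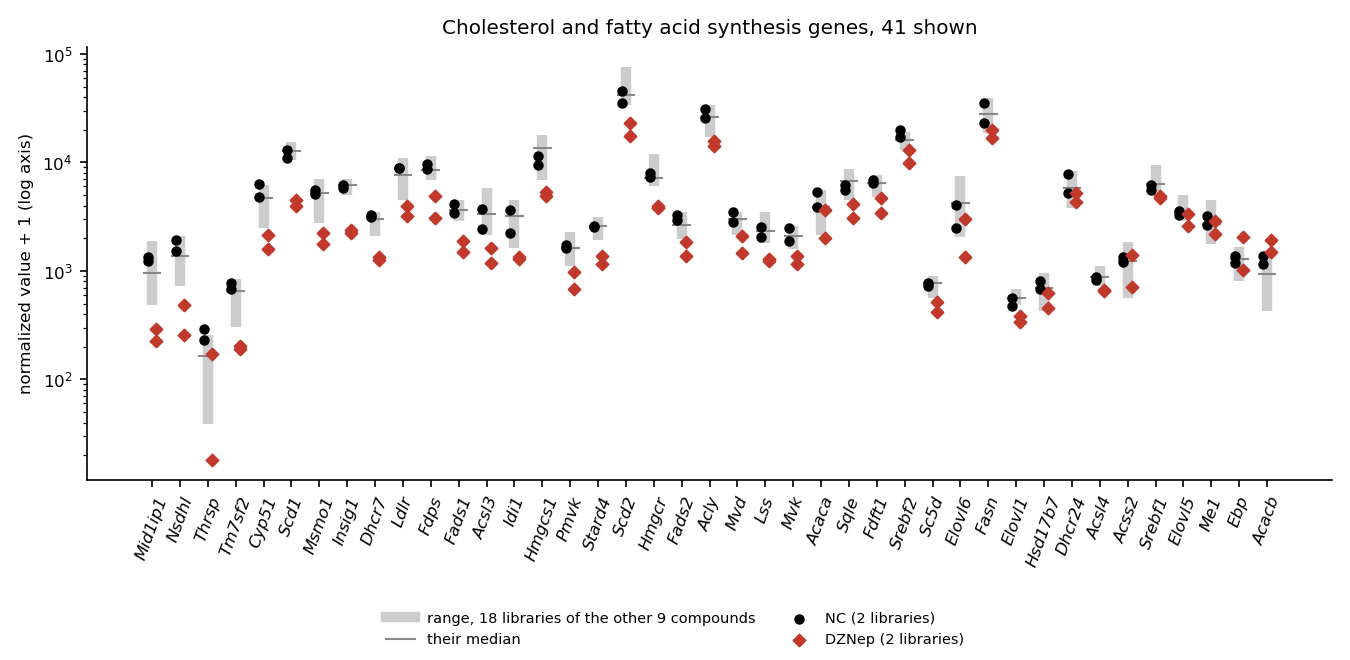
Normalized value plus 1 (log axis) of 41 of the tested cholesterol and fatty acid synthesis genes in each NC library (circles) and DZNep library (diamonds), ordered by change; grey bars give the range and grey lines the median over 18 libraries of the other 9 compounds. From Mid1ip1 to Stard4 the diamonds lie below the circles for all genes shown, and among these they also lie below the grey bars except for Thrsp.

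The targets of ATF4, the factor of the integrated stress response that raises amino acid synthesis, transport and tRNA charging, formed another group with many falls. Of 38 tested members 16 fell and none rose (42.1% fallen against 6.14% of all tested genes), with a median of -0.94, and 34 of the 38 were lower within both replicate numbers. Stc2 (chromosome 11, bases 31357307 to 31370074), which encodes the secreted stanniocalcin 2, fell from 1590 and 909 to 193 and 88. Chac1 (chromosome 2, bases 119351229 to 119354381), a glutathione-degrading enzyme, fell from 1526 and 1195 to 205 and 129. The lipoprotein receptor gene Vldlr fell from 625 and 463 to 109 and 99. Phgdh, the first enzyme of serine synthesis, fell from 7894 and 6544 to 1580 and 1650, a change of -2.15 ± 0.14 with an adjusted p of 2.45e-06. Its 2 DZNep libraries lay below the 20 others, of which the lowest was 2968 (74.1% of the 31-base stretches of Phgdh occur in other transcripts). Asns, asparagine synthetase, had a change of -0.62 ± 0.13 and Atf4 itself one of -0.93 ± 0.32 (adjusted p = 0.0512), and neither was called. Without 1 library, 12 to 18 members fell, and 2 fell in the fit of DZNep and NC alone. The 20 chaperones of the endoplasmic reticulum, another arm of the response to protein stress, had no call (changes of -0.90 to 0.86), and of 22 cytosolic heat shock genes 1 rose, the small heat shock gene Cryab (54 and 101 against 820 and 692).

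The composite element bound by ATF4 and C/EBP proteins (CARE) is commonly written TGATGNAA. This motif was searched on both strands in the 250 bases before each RefSeq start (GRCm38.p6), and 32 of the 38 tested members had a window. It occurred in 10 of these 32 genes and in 3.91% of the 27025 genes of the RefSeq table. The list was drawn up from known ATF4 targets, so that its share of matches is a description of the list. Of the 10 members with a match 8 fell, and of the 22 without one 8 fell. Median changes were -1.26 and -0.91. The windows of the fallen members Chac1, Vldlr and Atf3 and of Asns, which was not called, are shown from 5′ to 3′ along the gene, with the match in capitals, which is the reverse complement of the motif in Chac1, Vldlr and Atf3. They lie at chr2:119350992-119351241 (plus strand), chr19:27216770-27217019 (plus strand), chr1:191183334-191183583 (minus strand) and chr6:7693210-7693459 (minus strand). The first match begins 193, 200, 110 and 23 bases before the start in the same order. Atf3 fell from 581 and 516 to 253 and 225.
Chac1: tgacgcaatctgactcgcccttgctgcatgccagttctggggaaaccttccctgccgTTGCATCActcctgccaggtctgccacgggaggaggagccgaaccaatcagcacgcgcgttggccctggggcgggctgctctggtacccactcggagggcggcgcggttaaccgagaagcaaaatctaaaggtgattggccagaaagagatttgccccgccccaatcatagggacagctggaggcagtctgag
Vldlr: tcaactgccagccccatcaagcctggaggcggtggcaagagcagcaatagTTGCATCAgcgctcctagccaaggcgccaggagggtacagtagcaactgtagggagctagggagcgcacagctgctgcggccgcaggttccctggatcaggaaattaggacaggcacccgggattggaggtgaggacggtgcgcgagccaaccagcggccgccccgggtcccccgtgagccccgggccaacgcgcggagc
Atf3: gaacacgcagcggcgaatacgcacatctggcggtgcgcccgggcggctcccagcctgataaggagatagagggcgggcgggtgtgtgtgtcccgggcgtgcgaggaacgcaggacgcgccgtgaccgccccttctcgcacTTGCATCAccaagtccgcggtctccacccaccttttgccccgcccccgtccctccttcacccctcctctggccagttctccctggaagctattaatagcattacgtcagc
Asns: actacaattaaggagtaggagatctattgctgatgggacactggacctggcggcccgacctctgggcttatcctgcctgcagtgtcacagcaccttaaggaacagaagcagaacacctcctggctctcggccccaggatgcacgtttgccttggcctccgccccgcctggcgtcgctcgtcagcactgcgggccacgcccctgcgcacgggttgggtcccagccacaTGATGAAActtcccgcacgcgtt

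Targets of p53, the factor that responds to DNA damage and other stress, went up. Of 30 tested members 8 rose and 1 fell (26.7% risen against 5.27% of all tested genes), the median was 0.74, and 25 of the 30 were higher within both replicate numbers, as were 33.5% of the tested genes. Perp (chromosome 10, bases 18845020 to 18857073), a membrane protein of desmosomes and of p53-driven apoptosis, rose from 143 and 248 to 2994 and 2577. Its change was 3.88 ± 0.31 with an adjusted p of 6.4e-06, and the other compounds reached at most 388. The kinase gene Plk2 rose from 997 and 897 to 6342 and 4578, Btg2 from 1072 and 1199 to 4661 and 2732, and Ckap2 from 2046 and 2114 to 8453 and 4411. All 4 genes were above every other library of the series in both DZNep libraries. Plk3 was the fallen member and was lost without DZNep replicate 1 (-1.29 to -0.99). Cdkn1a, which encodes the cell cycle inhibitor p21, was not called (6054 and 5364 against 6843 and 6634). Without 1 library, 8 to 11 members rose, and none rose in the fit of DZNep and NC alone.

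**Figure D4:**
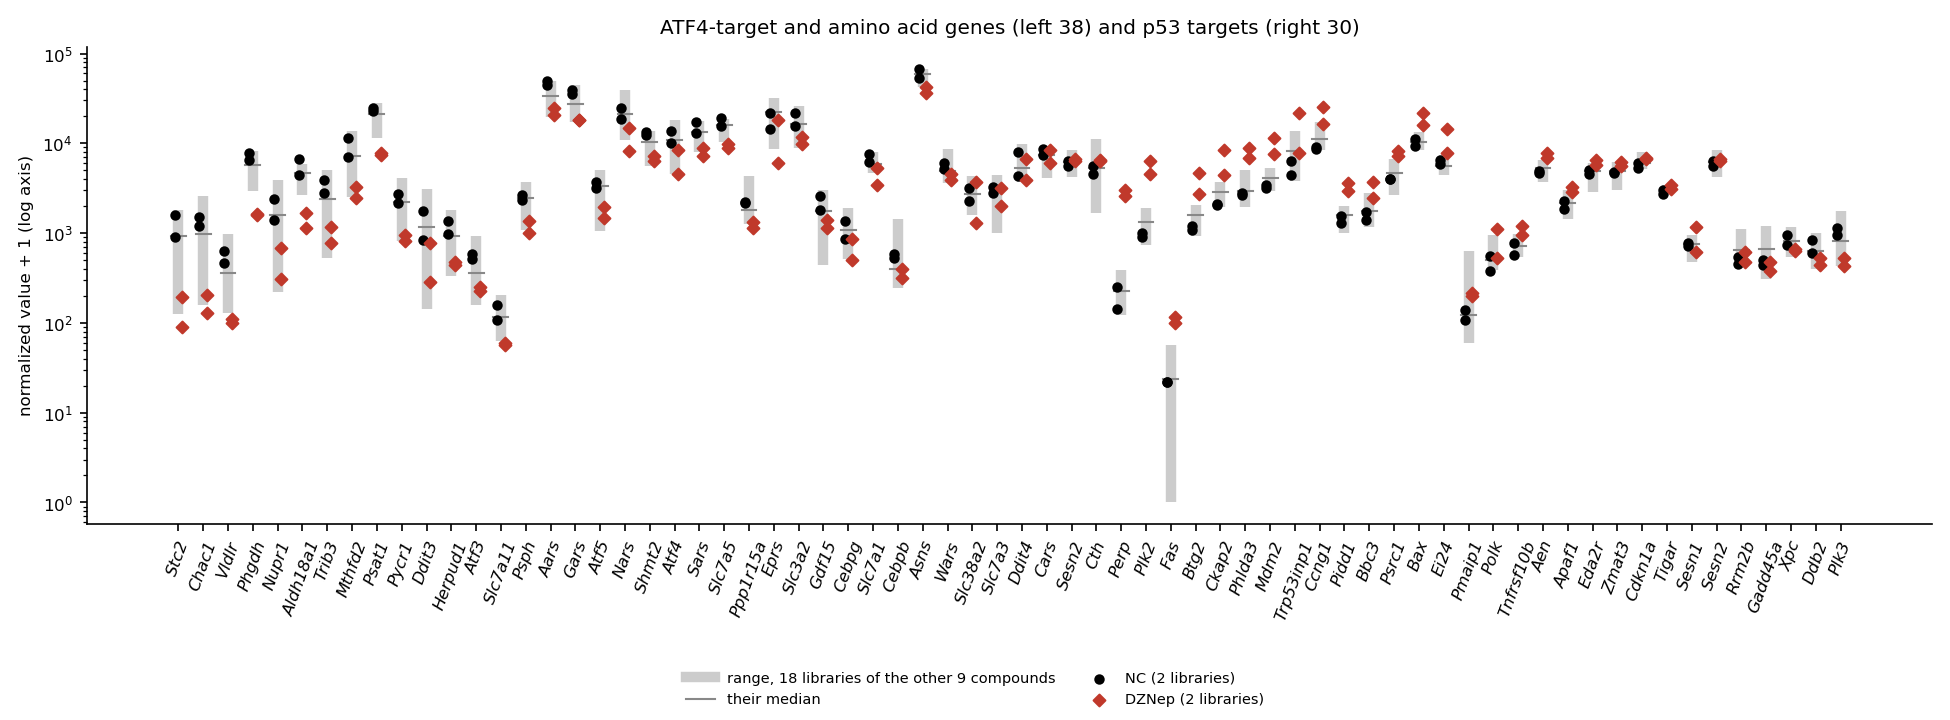
Normalized value plus 1 (log axis) of the 38 tested ATF4-target and amino acid genes and the 30 tested p53 targets in each NC library (circles) and DZNep library (diamonds), each ordered by change; grey bars give the range and grey lines the median over 18 libraries of the other 9 compounds. Diamonds lie below circles along most of the left block and above them along most of the right block.

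Hypoxia and glycolysis genes fell in part. Of 33 tested members 7 fell and 1 rose, with a median of -0.43. These are 21.2% fallen and 3.03% risen, against 6.14% and 5.27% of all tested genes. Vegfa, the angiogenic growth factor, fell from 6164 and 3822 to 1266 and 1253, and Egln3, an oxygen-sensing prolyl hydroxylase, from 670 and 482 to 135 and 175. The glycolytic enzyme gene Aldoc (640 and 336 against 148 and 65) and the mitophagy gene Bnip3 (766 and 512 against 255 and 160) were lost without NC replicate 1 or DZNep replicate 2, with leave-out changes of -2.82 to -1.64 and of -1.96 to -1.29. In this list 3 fell without NC replicate 1 or without DZNep replicate 2, whereas 10 fell without NC replicate 2 or DZNep replicate 1. Among 22 targets of NRF2, the factor of the antioxidant response, 1 rose and 1 fell. Only 1 of them was called without NC replicate 1 or DZNep replicate 1, and 0 without NC replicate 2.

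Of 15 tested core pluripotency factors 2 rose (13.3%, against 5.27% of all tested genes) and none fell. Utf1, a chromatin-bound transcription coactivator of stem cells, rose from 1283 and 1467 to 4622 and 5749 (1.91 ± 0.23, adjusted p = 7.54e-05), above every other library. Zfp42 (Rex1) rose from 16469 and 20763 to 49540 and 33822, and was lost without DZNep replicate 1 or NC replicate 1 (0.87 to 1.42). Nanog measured 44793 and 59405 in NC and 92251 and 123367 in DZNep. The DZNep values were above the 18 other libraries, where the highest was 75957, but its adjusted p against NC was 0.0574. Sox2 (14112 and 10935 against 15924 and 12129) and Klf4 (4590 and 3429 against 7340 and 4066) were not called. Only 1 core member rose without NC replicate 1 or without DZNep replicate 1. Of 24 genes of naive pluripotency 2 rose, Zfp42 and Tbx3, and 2 fell, Socs3 and Ooep, and without NC replicate 1 only 1 rose and none fell. Of 24 primed pluripotency genes 4 rose and 4 fell (16.7% each way, against 5.27% and 6.14% of all tested genes). The risen genes included Foxd3, a forkhead factor of pluripotent cells, at 773 and 811 against 3607 and 3335. Of this list 2 rose and 3 fell without NC replicate 1.

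Myc, a growth-promoting transcription factor, measured 4 and 19 in NC and 230 and 161 in DZNep, against at most 89 in the libraries of the other compounds, with a change of 4.27 ± 0.95 (adjusted p = 0.00542). Its call was lost without NC replicate 1, where the change was 3.27. Its relative Mycn measured 3525 and 2625 against 5048 and 3524 and was not called. Of the 13 tested members of the family and its partners 2 rose, Myc and Mxd4. Neither was called without NC replicate 1, and Mxd4 was lost without any of the 4 libraries. None of 74 ribosomal protein genes, 39 DNA replication genes and 32 mitosis genes was called, with medians of 0.00, -0.03 and 0.06. Of 42 ribosome biogenesis genes 1 rose, Nop10, with a median of 0.27. No member of that list was called without NC replicate 1, 4 rose without NC replicate 2 and 3 rose without DZNep replicate 2. The 61 nuclear genes of the respiratory chain had a median of 0.28 and 2 falls, Sdhb (4120 and 4712 against 2035 and 1744) and the muscle isoform Cox6a2, which was lost without either NC library or without DZNep replicate 2. In that list 5 genes rose without NC replicate 2 and 7 rose without DZNep replicate 1. Of 24 G1 cyclins and inhibitors 3 rose and 2 fell (12.5% and 8.33%, against 5.27% and 6.14% of all tested genes). The CDK inhibitor genes Cdkn1c, an imprinted gene (56 and 82 against 354 and 456), and Cdkn2b (271 and 290 against 623 and 657) rose, while Cdkn1b fell and was lost without NC replicate 1 or DZNep replicate 2 (-1.36 to -0.98). Of these 24 genes 2 rose and none fell without NC replicate 1.

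Developmental regulators known as polycomb targets went both ways. Of 45 tested members outside the Hox clusters, 7 rose and 7 fell, and the median was 0.09. These are 15.6% each way, against 5.27% risen and 6.14% fallen of all tested genes. Foxd3 and Neurod1, a neuronal factor (44 and 91 against 414 and 186), were among those that rose, and Cdx1 and Nkx2-5 among those that fell. Against the mean of the other 9 compounds Nkx2-5 was not called (adjusted p = 0.0725). Nkx2-5 was not called without DZNep replicate 1 or without either NC library (-3.69 to -2.10). Calls were 4 up and 3 down without NC replicate 1, 4 up and 5 down without NC replicate 2 and 5 up and 3 down without DZNep replicate 1. Of 18 tested Hox genes none rose and 5 fell (27.8%, against 6.14% of all tested genes), with a median of -0.84. Hoxd8 fell from 130 and 97 to 29 and 13 and Hoxa10 from 71 and 36 to 2 and 5. Hoxa9 was at 13 and 13 in NC and at 2 and 1 in DZNep. It was not called against the mean of the other 9 compounds (adjusted p = 0.0687). Hoxc4 fell as well. Leaving out 1 library ended the calls of Hoxa10 and Hoxc4 (NC replicate 1, with leave-out changes of -4.10 to -3.10 and of -1.48 to -0.89) and of Hoxa9 (any of the 4, -2.81 to -2.22), and 1 member fell without NC replicate 1 and 3 without NC replicate 2 or DZNep replicate 1.

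Lineage lists were mixed. Of 25 primitive endoderm genes 5 rose and 3 fell (20% and 12%, against 5.27% and 6.14% of all tested genes). Pdgfra, a receptor tyrosine kinase of this lineage, rose from 22 and 19 to 120 and 85, and Hnf4a from 9 and 12 to 155 and 97. Gata4 fell from 156 and 154 to 35 and 61, and Gata6 was not called (192 and 115 against 170 and 367). The 5 markers together summed to 454 and 364 in NC and to 467 and 739 in DZNep, with Gata6 making up 367 of the last sum. The groups did not overlap, but 467 and 454 lie close together. The other compounds ranged from 219 to 554. In this list 3 rose and 2 fell without NC replicate 1 or without DZNep replicate 1. Of 20 mesendoderm genes 6 rose and 4 fell (30% and 20%). The repressor of epithelial genes Snai1 measured 20 and 28 against 329 and 269. Without DZNep replicate 1, 3 of the 20 rose and 3 fell. Of 22 neural genes 3 rose and 4 fell (13.6% and 18.2%). The microtubule regulator Stmn2 fell from 3082 and 5970 to 1366 and 1537. The neural markers summed to 4927 and 9380 in NC and to 5058 and 6226 in DZNep, with overlap between the groups, and Sox1 and Stmn2 had fallen among the 5. Tubb3 of the same markers was higher in DZNep without a call (947 and 2771 against 3331 and 4333).

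Of 23 tested trophoblast genes 7 rose and 1 fell, with a median of 1.08. This is 30.4% risen against 5.27% of all tested genes, while 13 members were higher and 8 were lower within both replicate numbers. Plet1, a surface protein of early trophoblast, rose from 225 and 200 to 696 and 731. The imprinted trophoblast genes Ascl2 (48 and 41 against 193 and 148) and Peg10 (225 and 261 against 1024 and 534) rose as well. Of the 5 trophoblast markers 3 were in the table, and Elf5 and Tpbpa were not among them. Cdx2 measured 2 and 8 against 9 and 11, and the 3 markers summed to 90 and 39 in NC and to 361 and 323 in DZNep, with Krt7 making up 347 and 312 of the DZNep sums. The part of such cells in these changes was not tested, and more cells of a type and more RNA per cell cannot be told apart in bulk libraries. Among the trophoblast genes 4 rose and none fell without NC replicate 1, and 4 rose and 1 fell without DZNep replicate 1.

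Signaling lists showed single strong members, and their shares of calls differed. Over all tested genes 5.27% rose and 6.14% fell. The shares were 4.76% and 9.52% for FGF and ERK genes, and 15% each way for immediate early genes. Of 17 Nodal pathway genes 5 fell (29.4%) and none rose, with a median of -0.20. The secreted Nodal inhibitors Lefty1 (669 and 1001 against 92 and 113) and Lefty2 (1761 and 3240 against 320 and 241) fell, with changes of -2.99 and -3.10. Gdf1 and Skil fell as well. Gdf1 was lost without NC replicate 1 or DZNep replicate 1 and Skil without DZNep replicate 2, and all 31-base stretches of Gdf1 occur in other transcripts. Of the list 3 fell without DZNep replicate 1, and 3 fell and 1 rose without NC replicate 1. Of 21 WNT target and pathway genes 5 rose and 3 fell (23.8% and 14.3%). The ligand gene Wnt6 rose from 33 and 30 to 269 and 273. The receptor gene Fzd7 fell from 1510 and 899 to 316 and 243, and Nkd2, an inhibitor of the pathway, from 32 and 30 to 4 and 8. Both NC libraries listed Lgr5 at 0, whereas DZNep had 74 and 68, and the other compounds reached at most 2. Calls in this list were 2 up and 3 down without NC replicate 1. Of 19 BMP genes 3 rose and 3 fell (15.8% each way). Bmp4 rose from 8 and 9 to 76 and 38, and its target Id3 from 7 and 55 to 630 and 601, while the inhibitory Smad6 fell from 414 and 334 to 71 and 117. Id3 was lost without NC replicate 1 or without either DZNep library (3.46 to 6.27). Of 21 FGF and ERK genes 1 rose and 2 fell, and the fallen ligands Fgf8 and Fgf15 were both lost without NC replicate 1 (Fgf8 also without NC replicate 2 or DZNep replicate 1), which left 1 rise. Of 20 immediate early genes 3 rose and 3 fell, and 1 rose and 2 fell without NC replicate 1.

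**Figure D5:**
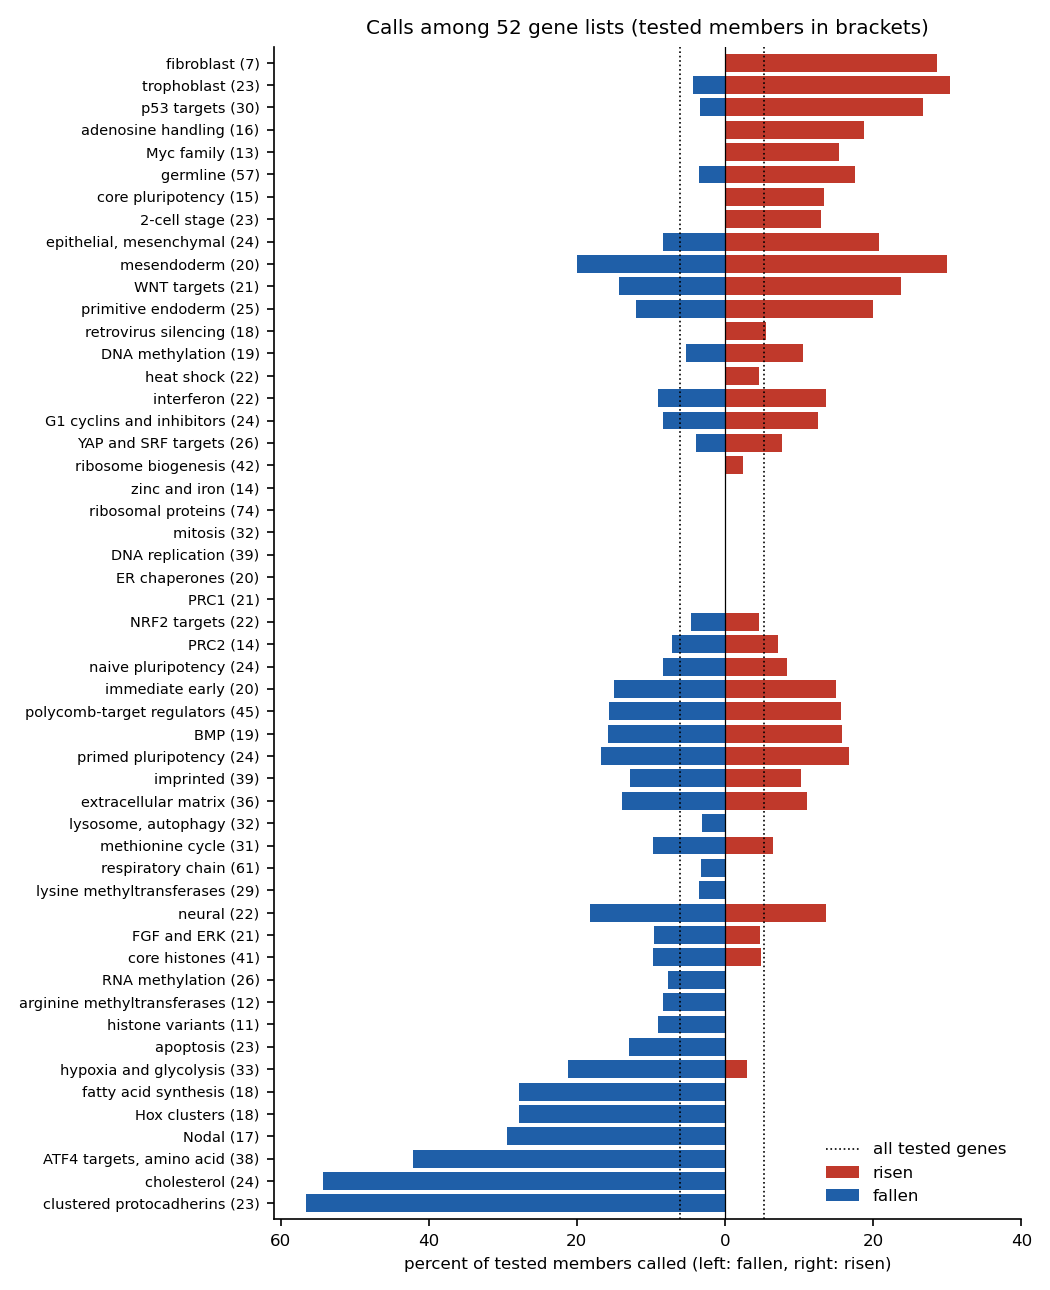
Share of the tested members of each of the 52 gene lists that rose (red bars, right) and fell (blue bars, left) in DZNep against NC, with the number of tested members in brackets; dotted lines give the shares over all tested genes, 5.27% and 6.14%. Clustered protocadherins, cholesterol and ATF4-target genes lie far to the left, and 6 lists hold no call.

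Germline genes, many of them silenced by promoter DNA methylation, were described next. Of 57 tested members 10 rose and 2 fell, with a median of 0.28. These are 17.5% risen and 3.51% fallen, against 5.27% and 6.14% of all tested genes, and the difference was not tested. Rhox5 (X chromosome, bases 37804842 to 37808876), a homeobox gene of the reproductive cluster, rose from 345 and 344 to 3042 and 2446, a change of 2.98 ± 0.24 with an adjusted p of 6.23e-06. One of the other compounds' libraries reached 4970. Rhox13 of the same cluster rose from 135 and 166 to 620 and 1316, and Tex19.2 from 136 and 142 to 650 and 734. Dmc1, a meiotic recombinase gene, was one of the 2 that fell, from 178 and 183 to 41 and 51. Dazl, an RNA-binding protein of germ cells, measured 6257 and 3591 against 14700 and 6955 and was not called (adjusted p = 0.0882). Germline calls were 5 up and 2 down without NC replicate 1. The E-box CACGTG, which reads the same on both strands, was found in the 250 bases before the start of 19 of the 49 members with a RefSeq window and in 6.86% of all genes of that table. Of the 19 with a match 4 rose, and of the 30 without one 5 rose.

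Of 23 genes of the 2-cell stage 3 rose and none fell, Pramel6 (97 and 110 against 1354 and 1657), Zfp365 (299 and 499 against 2291 and 1502) and Sp110. Sp110 was lost without any of the 4 libraries (1.82 to 2.12), and 2 of the list rose without NC replicate 1. Of 18 factors of retrovirus silencing 1 rose, Zfp57, which is named above. Of 39 imprinted genes 4 rose and 5 fell (10.3% and 12.8%, against 5.27% and 6.14% of all tested genes). The noncoding RNA Rian fell from 26697 and 15357 to 4680 and 2540, and 3 rose and 2 fell without NC replicate 1.

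Clustered protocadherins are adhesion genes of which single cells choose a few. Of 23 tested members 13 fell and none rose (56.5% fallen, against 6.14% of all tested genes), and the median was -1.12. Within both replicate numbers 21 were lower, as were 39.3% of the tested genes. The fallen genes were of the γ cluster except Pcdhb22 of the β cluster, whose call was lost without NC replicate 1 or DZNep replicate 2 (-2.81 to -1.43). Pcdhgb8 measured 162 and 185 in NC and 58 and 54 in DZNep, and Pcdhga8 measured 102 and 131 against 30 and 15. Members of the γ cluster share their constant exons, and 52.3% of the 31-base stretches of Pcdhgb8 occur in other transcripts, so that the members were not counted independently. Of the list 9 fell without either NC library or without DZNep replicate 2. Of 36 extracellular matrix genes 4 rose and 5 fell (11.1% and 13.9%, against 5.27% and 6.14% of all tested genes). Collagen I gene Col1a1 rose from 24 and 24 to 327 and 228, and the membrane protease gene Mmp14 fell from 352 and 347 to 63 and 78. Of the 7 fibroblast markers, Col1a1 and Thy1 (12 and 11 against 66 and 64) rose, Col3a1 measured 4 and 743 against 509 and 716, and Pdgfrb was lower in DZNep without a call (217 and 108 against 57 and 64). The 7 summed to 271 and 917 in NC, to 992 and 1119 in DZNep and to 70 to 1476 in the libraries of the other compounds. Fibronectin, Fn1, was at the largest value of the table, 221616, in both NC libraries and at 92487 in both DZNep libraries. Equal values of this kind can arise when libraries are set to 1 distribution, and the call of Fn1 was lost without any of the 4 libraries, with the change at -1.26 in each case. Of 24 epithelial and mesenchymal genes 5 rose and 2 fell, among them the keratin gene Krt19 (6 and 9 against 320 and 85), and 3 rose and 1 fell without NC replicate 1, 4 rose and none fell without NC replicate 2, and 2 rose and none fell without DZNep replicate 1.

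Among histone genes, the macroH2A gene H2afy fell from 11674 and 9031 to 2838 and 3137, a change of -1.78 ± 0.17 with an adjusted p of 1.86e-05, and below all 18 other libraries. It was the only call among 11 replication-independent histones. Of 41 clustered histone genes 2 rose and 4 fell, which share sequence. The calls of the risen genes Hist2h2aa1 and Hist2h3c2 were lost without any of the 4 libraries, although their changes stayed at 4.13 to 4.71 and at 2.66 to 3.16, and 1 to 3 genes fell. Of 22 interferon and antigen presentation genes 3 rose and 2 fell (13.6% and 9.09%, against 5.27% and 6.14% of all tested genes). The peptide transporter gene Tap1 rose from 64 and 65 to 522 and 629, whereas H2-K1, which encodes a class I molecule, fell from 548 and 617 to 78 and 114. Without DZNep replicate 1, 1 rose and 2 fell in this list, and without NC replicate 1, 1 rose and 1 fell. Of 23 apoptosis genes 3 fell, Casp8 (114 and 106 against 40 and 47), Casp9 (1427 and 1336 against 623 and 672) and Bcl2l2, the last of them lost without NC replicate 1 or DZNep replicate 2. In that list 2 rose and 3 fell without NC replicate 2, and 2 rose and 4 fell without DZNep replicate 1. Of 32 lysosome and autophagy genes 1 fell, the galactosidase gene Glb1 (4605 and 3259 against 1082 and 923). Of 26 YAP and SRF targets 2 rose and 1 fell, and the 14 genes of zinc and iron handling held no call.

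Some of the values above could hold reads of other genes. Exons of Dnmt3l overlap those of Aire on the opposite strand, as do Tap1 and Psmb9, Cryab and Hspb2, Nsd2 and Nelfa, Cyp51 and Akap9, and Gabra4 and Gabrb1. Sequence shared with other transcripts took up 74.7% of the 31-base stretches of Bnip3, 55.6% of Rarb, 34.9% of Igf2bp3, 22.5% of H2-K1 and 22.1% of Ly6a. The shares of Mettl3, Uhrf1, Cdkn1c, Lefty1, Mid1ip1 and Fgf15 lay between 23.5% and 30.6%.

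The libraries of the other 9 compounds gave a second reference that did not use NC. Against their mean, 2095 genes were called in DZNep, 12.1% of the tested genes, with 1057 risen (6.12%) and 1038 fallen (6.01%). Of the 1970 genes called against NC, 1464 were called here in the same direction (700 risen and 764 fallen), which is 74.3% of the first list and 69.9% of the second, and none was called in the opposite direction. Both comparisons share the DZNep libraries, so that they are not independent. In 622 risen and 619 fallen genes both DZNep libraries lay beyond all 20 other libraries of the series, as they did in 17.4% of the tested genes. The lists of cholesterol, ATF4-target and p53-target genes had medians of -1.01, -0.75 and 0.61 against the other compounds, with 13 and 12 fallen and 8 risen members. The Hox genes had 3 fallen members and a median of -0.31, and the trophoblast genes 6 risen members and a median of 0.45.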

How the data were processed

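Poly(A) RNA-seq libraries of E14 cells were grouped by sample title. The authors deposited 1 score per gene and library, a normalized read count rounded to whole numbers. Per the labels' processing notes, bcl2fastq, Bowtie2 2.2.5, RSEM and mm10 were used, and the normalization is not given in the sources used here. In every library the third quartile was 1608 to 1608.5 and the largest value 221616, as quantile normalization leaves them, which hides depth and any change shared by most genes. Whether strand was kept is not stated, so overlapping antisense genes are uncertain. The second deposited table holds the group means of the first and was not used. No column was left unmatched.

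Genes that reached 10 in 2 or more of the 22 libraries were tested on log2(value + 1) with limma 3.58.1 in R 4.3.3 (11 group means, trended eBayes, 11 residual degrees of freedom, Benjamini-Hochberg adjustment over 17275 genes, two-sided). DZNep was compared with NC and, as a second contrast, with the mean of the other 9 compounds. The step was run on simulated data, drawn with independent noise, the same spread in every group and no difference between replicate numbers. It thus did not cover unequal spreads or differences shared by replicate number. The comparison and the gene lists were chosen with earlier results of these data known. Lists were described by counts and medians, without a test. The text names called genes above 0 in all 22 libraries, with DZNep beyond NC and changes of over 1 within both replicate numbers: the 12 largest rises and falls at group means of 1000 or more and the 6 largest at 100 to 1000, leaving out predicted, clone and receptor-family symbols. It also names up to 4 genes per list by size of change, moved the same way within both numbers and without the level minimum, and a set of genes named whatever their result (Ahcy, Ezh2, Nanog and others, with all methionine cycle and PRC2 members). Other genes (Acsl3, Asns, Atf3, Atf4, Col3a1, Ebp, Fn1, Hoxc4, Krt7, Lgr5, Plk3, Skil, Sox1, Sp110 and the cell type markers) were chosen after their values were seen. A few genes that the rule selects are not reported here by name, but they are part of the counts. Positions are from GENCODE M21 (mm10), and shared stretches of 31 bases were counted against its transcripts. Alternatives were another pseudocount, filter, scaling or variance model, a replicate block, a fit of DZNep and NC alone, and leaving out each library.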

Additional observations from a re-analysis of the deposited data

How the results depend on the processing

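Between 1187 (without NC replicate 1) and 2357 (without DZNep replicate 2) genes were called against NC when 1 library was left out, 567 to 882 risen and 620 to 1495 fallen, and 1092 of the 1187 were among the 1970. The fit of DZNep and NC alone gave 97 calls, 82 risen and 15 fallen, of which 67 were among the 1970; its 2 residual degrees of freedom, against 11, are part of its construction. A pseudocount of 10, no filter, genes above 0 in all libraries, rescaling by median ratios and no variance trend gave 1876 to 1994 calls. Against the other 9 compounds the count was 1842 to 2425 over the alternatives run. With the replicate block 2605 genes were called, among them all 1970. The main fit did not pair the libraries by replicate number. The deviations of same-numbered libraries correlated positively in all 55 pairs of groups (0.05 to 0.30, median 0.20). They correlated over 0.1 in 51 of the pairs, and at 0.08 between DZNep and NC. A difference between replicate numbers was thus shared across groups, and the main fit did not take it out. Of the 200 named genes, 149 were called; 103 of these were called without NC replicate 1, 9 in the fit of DZNep and NC alone, and none reversed under any alternative. Of 46 lists with a call, 24 had their count cut by over 1.5 times without NC replicate 1. The unknown depth limits what can be said of genes near 0, and 2 libraries per group limit the precision of every value.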

Other observations

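Gene families were also grouped by symbol, after the values had been seen. The genes of the oligoadenylate synthetase (Oas) family had 5 rises among 8 tested members (Oas1c, Oas1d, Oas1e, Oas1f and Oas2) and a median change of 1.76. Oas1c measured 70 and 83 in NC and 407 and 354 in DZNep, and Oas1f 19 and 28 against 214 and 318. These genes are similar in sequence and their counts are uncertain, and 4 members were called without NC replicate 1. The Rhox cluster on the X chromosome had 7 rises among 19 tested members, 5 of them named Rhox2 copies, with a median of 1.52. The sequence shared by the Rhox2 copies was not measured, so that their rises may not be separate.

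Among families with falls, 6 of 13 tested Fgf genes fell and none rose, with a median of -0.96. Fgf17 fell from 874 and 805 to 235 and 165. Of 9 genes with the stem Camk 5 fell, with Camk1, a calcium-dependent kinase, at 363 and 310 against 46 and 98, and 3 of the 9 were called without NC replicate 1. Of 9 claudins 4 fell, among them Cldn3 (719 and 589 against 204 and 341) and Cldn5 (182 and 116 against 18 and 46). Over all tested genes 5.27% rose and 6.14% fell. The Rhox, Fgf and claudin families had 5, 4 and 3 calls without NC replicate 1. These families were picked for their counts of calls, so that the counts are a description with no test.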
